A study of Drosophila melanogaster with 3 samples.

Results

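The mitochondrial ribosomal protein genes of Drosophila melanogaster were taken as the protein-coding genes whose symbol begins with mRpL or mRpS and a number, which gave 73 of the 13945 protein-coding genes on the chromosome arms. Of these, 47 encode proteins of the large subunit and 26 proteins of the small subunit. The symbol was the only criterion, so mitochondrial ribosomal proteins listed under other names, such as tko and bonsai, were not included. The data were peaks of chromatin immunoprecipitation sequencing (ChIP-seq) for fd64A, listed in the annotation as FoxL1, a transcription factor of the forkhead family.

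There was 1 group, of 3 biological replicates with 1 technical replicate each, and no second genotype, stage or treatment. All embryos came from the fd64A-GFP strain, a transgenic line that stably expresses fd64A with a C-terminal fusion to green fluorescent protein (GFP). They were 8 to 14 hours old by the source name, as the age entry could not be read in hours. They were of mixed sex and were used whole, so peaks from different cell types cannot be told apart. Chromatin had been sheared by sonication to fragments of 200 to 800 bp. The labels disagree on what the samples are. Their description names them input controls, but the antibody, the assay title and a control listed apart mark them as immunoprecipitations, and they were read as such. Each replicate and the pool of all replicates had a relaxed list of 30000 peaks. A final list held 2919 peaks, thresholded on the irreproducible discovery rate (IDR), a measure of how well peak ranks repeat between replicates. The files give no read numbers, which leaves the depth unknown. Replicates 1, 2 and 3 had 4964, 3017 and 1598 peaks with q under 0.05.

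Mitochondrial ribosomes translate the few proteins that the mitochondrial genome encodes, which are subunits of the respiratory chain and of ATP synthase. Their ribosomal RNAs come from the mitochondrial genome, but all of their proteins are encoded in the nucleus, made in the cytosol and imported. Cytosolic ribosomes are built from a separate set of proteins, whose genes carry the prefixes RpL and RpS.

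The mitochondrial ribosomal protein genes carried fd64A-GFP peaks in or near the gene about as often as other genes. With each summit given only to the gene with the nearest transcription start site (TSS), the share was 5.48%, against 14.0% of all protein-coding genes. Of protein-coding genes of at most 2000 bp, 6.61% had a summit by this rule. These differences were not tested. A summit was ascribed to a gene if it lay between 2000 bp upstream of its most upstream TSS and its end. This held for 11 of the 73 genes in the IDR list, or 15.1% (Wilson 95% interval 8.63 to 25.0%), against 16.9% of all protein-coding genes. The share is near this background and is not a result about these genes. They are short, with a median length of 909 bp against 2166 bp for all protein-coding genes, and 70 of the 73 are at most 2000 bp long. Of all protein-coding genes of at most 2000 bp, 8.48% carried a summit in this span. The intervals given here cover counting error only.

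Both subunits had similar shares in the span, but not by every rule. By the nearest TSS, 4 of 47 large (8.51%) and 0 of 26 small subunit genes had a summit, against 14.0% of all protein-coding genes. A summit lay in the span of 7 of 47 large subunit genes (14.9%, Wilson 95% interval 7.41 to 27.7%) and of 4 of 26 small subunit genes (15.4%, interval 6.15 to 33.5%). The large subunit genes were mRpL23, mRpL41, mRpL2, mRpL53, mRpL24, mRpL34 and mRpL12, with best ranks by signal between 123 and 2875 of the 2919 peaks. The small subunit genes were mRpS23, mRpS10, mRpS2 and mRpS16, with best ranks between 13 and 2554. By chromosome, summits lay at 3 of 12 genes on arm 2L, 4 of 12 on 2R, 3 of 17 on 3L, 1 of 21 on 3R and 0 of 11 on X. Over all protein-coding genes the shares were 16.5% on 2L, 17.7% on 2R, 18.4% on 3L, 16.5% on 3R and 15.9% on X. A count of 0 of 11 allows a share of up to 27.3%.

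The replicates were compared through the 2919 strongest peaks of each, called leading peaks. Replicate 3 had only 1598 peaks with q under 0.05, so some of its leading peaks do not reach that threshold. A leading summit lay at 12, 8 and 8 of the 73 genes in replicates 1, 2 and 3, or 16.4, 11.0 and 11.0%, with a mean of 12.8 ± 3.16% (SD, n = 3). Over all protein-coding genes the shares were 16.9, 17.2 and 16.2%, or 16.8 ± 0.483%. Against all protein-coding genes, the share of mitochondrial ribosomal protein genes was the lower one in each replicate, by a small margin in replicate 1. Over protein-coding genes of at most 2000 bp the shares were 8.45, 8.44 and 8.11%. Against these, the share of mitochondrial ribosomal protein genes was the higher one in each replicate. With 3 replicates a two-sided exact test cannot go below 0.25, so no test was made. Leading summits in all 3 replicates were found at 5 of the genes (6.85%), namely mRpS23, mRpS10, mRpL23, mRpL41 and mRpL2. The same held for 11.2% of all protein-coding genes and 4.89% of those of at most 2000 bp. The other 6 genes of the IDR list lacked a leading summit in at least 1 replicate, and replicate 1 alone had one at all 11. When IDR peaks also had to overlap leading peaks of both replicates 2 and 3, 5 genes were left, against 11.8% of all protein-coding genes. When they had to overlap those of replicates 1 and 2, 7 genes were left, against 12.0%. The IDR list itself comes from all 3 replicates. These counts therefore filter that list, could only fall, and do not leave a replicate out of it.

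**Figure D1:**
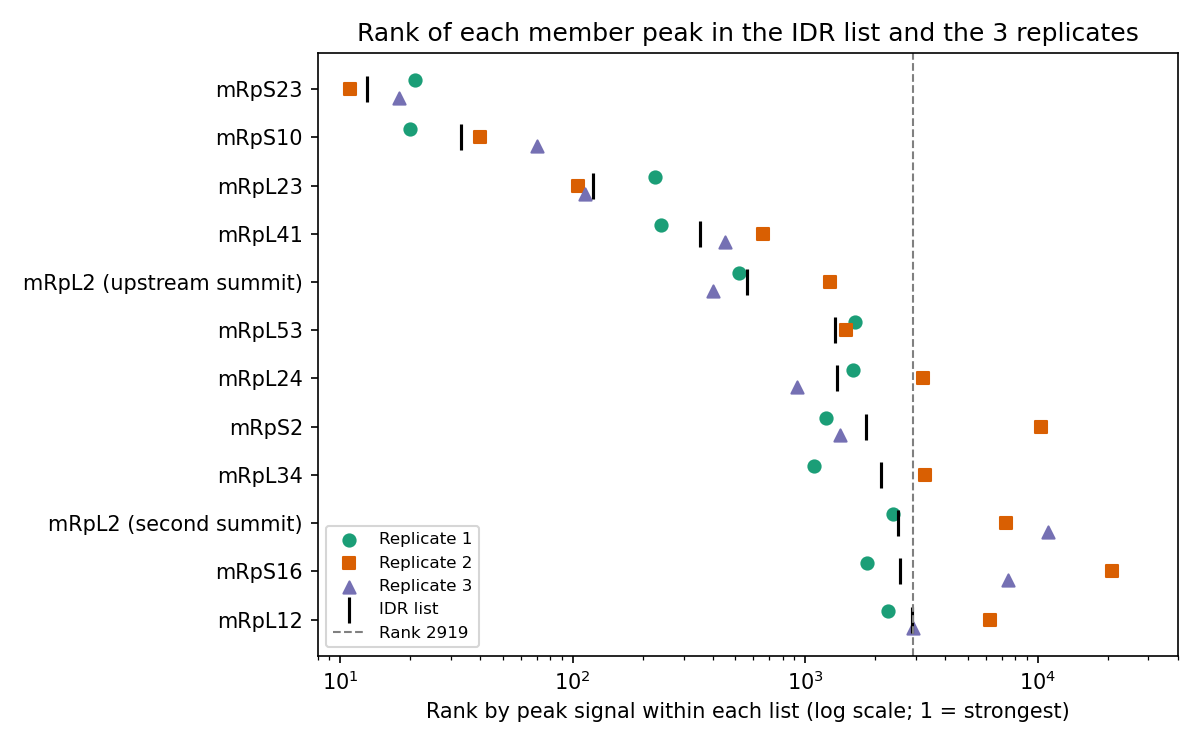
Rank by signal (log scale, 1 is the strongest) of each of the 12 peaks at mitochondrial ribosomal protein genes, in the IDR list (bars) and in the relaxed lists of replicates 1 to 3 (symbols, for a replicate summit within 100 bp), with a dashed line at rank 2919. The peaks of mRpS23, mRpS10 and mRpL23 kept ranks between 11 and 226 in every replicate, while from mRpL53 downwards at least 1 replicate lay beyond 2919 or had no such summit.

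The 2 strongest peaks had their summits in the short stretches that separate mRpS23 and mRpS10 from a neighbour transcribed in the opposite direction. mRpS23 (FBgn0260407), which encodes a small subunit protein, had the peak of rank 13, at chr2L:13835319-13835623 with a signal of 1679. Its ranks were 21, 11 and 18 in replicates 1, 2 and 3, with signals of 599, 606 and 488. All replicates thus placed this peak among their strongest. The summit lay 405 bp upstream of the TSS of mRpS23 and 87 bp from that of CenG1A, which encodes an Arf GTPase-activating protein. The 101 bases around the summit hold no forkhead word, by which is meant ATAAACA or ATAAATA, or GTAAACA or GTAAATA, on either strand. The 250 bases next to mRpS23 hold 2 copies of ATAAATA and 2 of TATCGATA, the word bound by the promoter factor DREF. These stretches are shown on the minus strand of dm6, in the direction of mRpS23, because they set the summit apart from the words near the gene. The summit window is chr2L:13835427-13835527 and the stretch upstream of mRpS23 is chr2L:13835073-13835322. Capitals mark forkhead words and TATCGATA.
mRpS23 summit: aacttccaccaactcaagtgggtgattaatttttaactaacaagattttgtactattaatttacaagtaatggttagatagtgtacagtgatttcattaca
mRpS23 upstream: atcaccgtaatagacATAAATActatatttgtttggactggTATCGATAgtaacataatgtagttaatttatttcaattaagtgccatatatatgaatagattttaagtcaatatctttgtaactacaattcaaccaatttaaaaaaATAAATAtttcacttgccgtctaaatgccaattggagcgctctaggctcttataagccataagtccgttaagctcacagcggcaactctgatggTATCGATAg
Counted from the TSS, the first base of the forkhead words lay at -235 and -103, and that of TATCGATA at -209 and -9.

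mRpS10 (FBgn0038307) encodes the counterpart of the bacterial small subunit protein S10. Its peak covered chr3R:15229391-15229681 with rank 33 and a signal of 1280. The ranks in replicates 1, 2 and 3 were 20, 40 and 70, with signals of 605, 353 and 328. Every replicate ranked it within its 70 strongest peaks. The summit lay 137 bp upstream of mRpS10 and 120 bp from the TSS of Art3, which encodes an arginine methyltransferase, so the distances to both genes were similar. Between the start sites of both genes lies a single forkhead word, GTAAACA, found here as TGTTTAC, which ends 14 bp from the summit. The full stretch between the start sites, chr3R:15229409-15229664 on the plus strand, is shown because it holds the summit. The peak runs past both of its ends.
Art3 to mRpS10: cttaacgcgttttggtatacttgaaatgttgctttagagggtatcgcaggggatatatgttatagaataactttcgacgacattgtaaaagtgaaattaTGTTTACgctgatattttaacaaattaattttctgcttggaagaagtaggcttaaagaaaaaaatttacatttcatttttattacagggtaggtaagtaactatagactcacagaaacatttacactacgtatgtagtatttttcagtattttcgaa
Capitals mark the forkhead word, whose first base lies at -157 from the TSS of mRpS10.

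mRpL23 (FBgn0035335) encodes the counterpart of the bacterial large subunit protein L23, which sits at the exit of the peptide tunnel. Its peak, at chr3L:2373458-2373718, had rank 123 and a signal of 856. Its ranks were 226, 105 and 113 in replicates 1, 2 and 3, with signals of 279.9, 260.4 and 289.1. All replicates held it among their 226 strongest peaks. This was the only one of the 12 summits downstream of the nearest TSS of its gene, by 82 bp, in an intron. It lay 95 bp upstream of another of the start sites annotated for mRpL23 and 132 bp from that of CG9004. No forkhead word and no TATCGATA lay in the 101 bases around the summit, which had a GC content of 20.8%. The part of this window outside untranslated sequence, chr3L:2373546-2373596 on the minus strand, is shown as the stretch poorest in G and C among the peaks.
mRpL23 summit: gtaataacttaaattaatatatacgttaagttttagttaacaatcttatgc

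mRpL24 (FBgn0031651) and mRpS2 (FBgn0031639), which encode the counterparts of the bacterial proteins L24 and S2, had their summits between head-to-head genes, as mRpS23 and mRpS10 did, with weaker peaks. The peak of mRpL24 covered chr2L:4945348-4945751 with rank 1370 and a signal of 285, and its ranks in replicates 1, 2 and 3 were 1602, 3218 and 920. The peak of mRpS2 covered chr2L:4850409-4850812 with rank 1836 and a signal of 246, and its ranks in replicates 1, 2 and 3 were 1231, 10373 and 1411. Replicate 2 was thus the low one for both, and had neither among its leading peaks. The summit of mRpL24 lay 189 bp upstream of its own TSS and 29 bp from that of betaggt-I, a subunit of a prenylating enzyme. The summit of mRpS2 lay 192 bp upstream of its own TSS and 30 bp from that of Mon1, which acts in Rab7 activation. In both pairs the summit was close to the neighbour, whereas the forkhead words were close to the ribosomal protein gene. The sequences between the start sites are shown for this reason, both on the minus strand, running from the neighbour on the left to the ribosomal protein gene on the right. They cover chr2L:4945362-4945578 and chr2L:4850420-4850640, and capitals mark forkhead words.
betaggt-I to mRpL24: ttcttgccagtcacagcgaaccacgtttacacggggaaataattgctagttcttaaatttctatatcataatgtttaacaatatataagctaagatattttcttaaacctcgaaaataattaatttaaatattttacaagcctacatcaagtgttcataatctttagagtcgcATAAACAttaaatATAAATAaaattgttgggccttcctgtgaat
Mon1 to mRpS2: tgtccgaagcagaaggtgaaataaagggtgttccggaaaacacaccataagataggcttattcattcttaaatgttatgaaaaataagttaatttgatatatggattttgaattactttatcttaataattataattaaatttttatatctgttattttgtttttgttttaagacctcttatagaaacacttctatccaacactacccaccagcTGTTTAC
The summit is base 29 of the first sequence and base 30 of the second. The words begin at -44 and -31 from the TSS of mRpL24 and at -7 from that of mRpS2.

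mRpL2 (FBgn0036135), the counterpart of the bacterial protein L2 beside the peptidyl transferase centre, was the only one of the 73 genes with 2 IDR summits. Both lay in an intron of FoxK, itself a gene for a forkhead factor, and neither was within 500 bp of the TSS of mRpL2. The first covered chr3L:11119784-11120187 with rank 564 and a signal of 454, and had ranks of 521, 1280 and 401 in replicates 1, 2 and 3. Its summit lay 861 bp upstream of mRpL2 and 425 bp from a TSS of FoxK. The second covered chr3L:11119988-11120391 with rank 2516 and a signal of 207, and its summit lay 657 bp upstream of mRpL2 and 221 bp from a TSS of FoxK. These peaks overlap, and the leading replicate peaks that touch the second have their summits near the first. Replicate summits within 100 bp of the second ranked 2391, 7304 and 11073 in replicates 1, 2 and 3. Thus only replicate 1 held the second summit among its leading peaks. Both windows hold forkhead words, capitalised below, and are shown to compare the pair, on the plus strand at chr3L:11119936-11120036 and chr3L:11120140-11120240.
mRpL2 first summit: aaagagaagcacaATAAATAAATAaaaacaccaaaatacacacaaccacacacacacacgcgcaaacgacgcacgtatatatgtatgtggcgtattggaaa
mRpL2 second summit: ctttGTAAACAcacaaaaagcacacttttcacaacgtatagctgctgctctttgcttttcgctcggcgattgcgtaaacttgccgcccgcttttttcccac
The first holds ATAAATA in 2 overlapping copies, 27 bp from the summit, and the second GTAAACA, 40 bp from the summit.

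mRpL12 (FBgn0011787), the counterpart of the bacterial stalk protein that recruits translation factors, had the weakest of the peaks. It covered chr3L:8954677-8955080 with rank 2875 and a signal of 191, and was the only one of the 12 without q under 0.05. Its ranks in replicates 1, 2 and 3 were 2268, 6263 and 2917, so replicate 2 did not hold it among its leading peaks and replicate 3 barely did. Only in replicate 1 did the peak reach q under 0.05. The summit lay 1912 bp upstream of mRpL12 and 142 bp from the TSS of GNBP3, which encodes a receptor for fungal glucans. The assignment to mRpL12 therefore rests on the 2000 bp limit alone.

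The other 4 peaks lay on arm 2R. mRpL41 (FBgn0034001) encodes a large subunit protein, and its peak at 2R:15217654-15217830 had rank 353, a signal of 563 and ranks of 240, 661 and 454 in replicates 1, 2 and 3. Its summit, 137 bp upstream of its TSS, was the only one within 500 bp of the TSS of its gene with no other gene's TSS within 500 bp of the summit, the next being that of CG8079 at 625 bp. A forkhead word other than GTAAACA lay 10 bp from this summit. mRpL53 (FBgn0050481), a further large subunit gene, had a peak at 2R:13953951-13954354 with rank 1339 and a signal of 290. Its ranks were 1635 and 1498 in replicates 1 and 2, and replicate 3 had no peak there. The summit lay 42 bp upstream of a start that the annotation also gives to CG33155, in an intron of AGO1, and its window was the richest in G and C of the 12, with a GC content of 53.5%. mRpL34 (FBgn0083983) and mRpS16 (FBgn0033907), counterparts of the bacterial proteins L34 and S16, had peaks of rank 2129 and 2554. Their summits lay in introns of Dg, which encodes dystroglycan, and of cg, which encodes the zinc finger protein combgap, 1197 bp and 1531 bp upstream of the ribosomal protein genes. These were the only summits more than 500 bp from every protein-coding TSS. For mRpL34, replicate summits within 100 bp ranked 1095 and 3277 in replicates 1 and 2, and replicate 3 had none. For mRpS16 the ranks were 1849, 20943 and 7484, so that replicate 1 alone had the summit among its leading peaks. The mRpS16 window holds GTAAACA and the mRpL34 window no forkhead word.

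**Figure D2:**
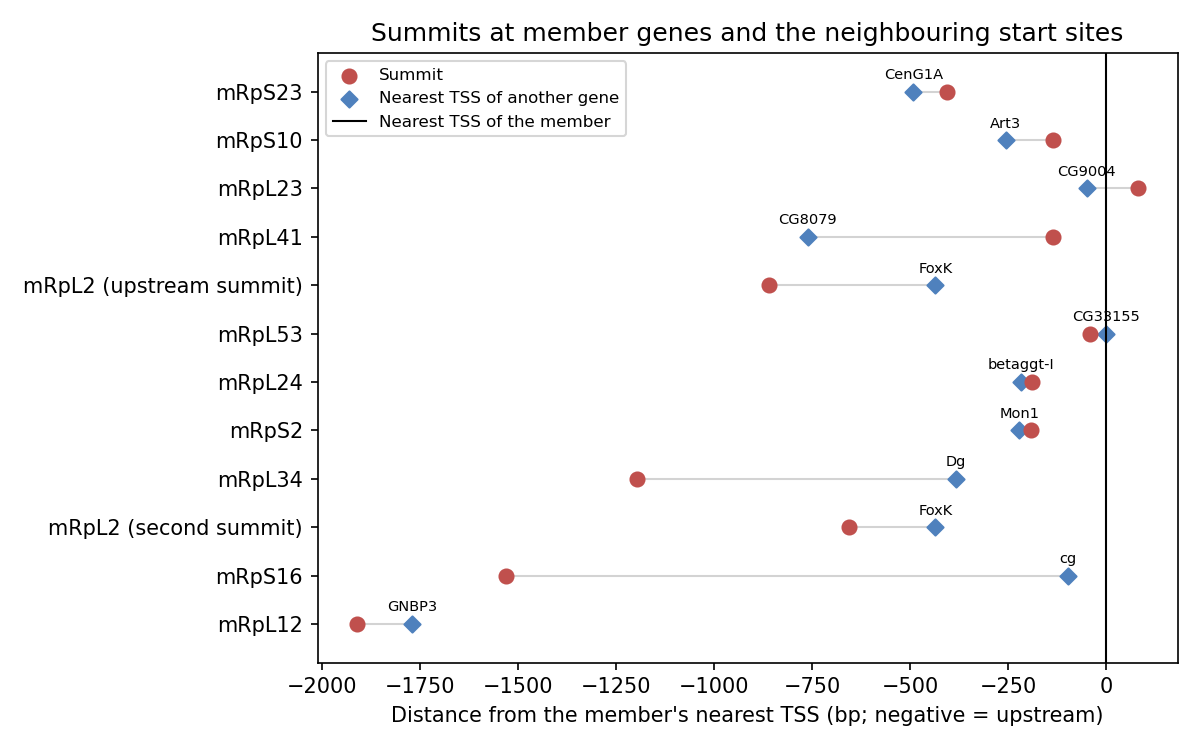
Position of each of the 12 summits (circles) and of the nearest TSS of another protein-coding gene (diamonds, named) relative to the nearest TSS of the mitochondrial ribosomal protein gene (vertical line), in bp along the direction of transcription. Of the 12 summits, 9 are nearer to the other gene, and 11 lie upstream. Summits were taken from spans that reach 2000 bp upstream of mostly short genes.

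At 9 of the 12 summits the TSS of a neighbour was nearer than that of the ribosomal protein gene. A protein-coding TSS lay within 500 bp of 10 summits (83.3%), against 38.2% of all IDR summits. These shares are not like for like, because the summits of this set were taken from spans that hold a TSS. The contrast is therefore not a result about these peaks. The TSS of the mitochondrial ribosomal protein gene itself lay within 500 bp of 7, and at 6 of these another gene's TSS did too. Only mRpL23, mRpL41 and mRpL53 had the nearest TSS, the last in a tie with CG33155. All 12 summits also lay in the span of at least 1 other protein-coding gene. The spans reach 2000 bp upstream of mostly short genes, which favours such positions. No share over all IDR summits stands beside these counts, so they are not read as a trait of these peaks. Counted by the TSS within 500 bp, 7 of the 73 genes (9.59%, Wilson 95% interval 4.72 to 18.5%) had an IDR summit, against 9.34% of all protein-coding genes and 5.32% of those of at most 2000 bp. When each summit was given to the gene with the nearest TSS, 4 mitochondrial ribosomal protein genes had one (5.48%). Against this stood 14.0% of all protein-coding genes and 6.61% of those of at most 2000 bp. The fourth mitochondrial ribosomal protein gene was mRpL40, whose span holds no IDR summit. The summit whose nearest TSS is that of mRpL40 lies outside the span.

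Head-to-head neighbours were common in the gene set whether or not a peak was present. A TSS on the opposite strand lay within 500 bp of a TSS of 53 of the 73 genes (72.6%), against 39.1% of the cytosolic ribosomal protein genes, 45.5% of the respiratory chain genes and 27.8% of all protein-coding genes. In all 53 the genes pointed away from each other, with a median distance of 264 bp. The share was 72.3% in the large and 73.1% in the small subunit. Among genes with such a neighbour, an IDR summit lay within 500 bp of the TSS in 6 of the 53 mitochondrial ribosomal protein genes (11.3%), against 14.5% of all protein-coding genes. Among genes without one, this held for 1 of 20 (5.00%, mRpL41) against 7.35%.

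The cytosolic ribosomal protein genes differed far more from the background. An IDR summit lay in the span of 11 of 73 mitochondrial (15.1%) and 65 of 92 cytosolic ribosomal protein genes (70.7%, Wilson 95% interval 60.7 to 79.0%). Within 500 bp of a TSS the counts were 7 of 73 and 64 of 92. In leading peaks the shares were 12.8 ± 3.16% for the mitochondrial and 66.3 ± 2.88% for the cytosolic set (SD, n = 3 replicates), and the cytosolic share was the higher one in every replicate. The difference was larger than the spread between replicates. The strongest peaks at the cytosolic genes were those of RpS27, RpL7, RpL14 and RpS4, with ranks of 70, 81, 134 and 135, each weaker than the peaks of rank 13 and 33 at mRpS23 and mRpS10. These 4 cytosolic summits were nearest to the TSS of the ribosomal protein gene itself, unlike those of mRpS23 and mRpS10.

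In the span, other nuclear genes for mitochondrial proteins likewise carried IDR summits no more often than all genes did. The background in the span was 16.9% of all protein-coding genes and 8.48% of those of at most 2000 bp. Of 88 respiratory chain genes, 8 carried an IDR summit (9.09%, Wilson 95% interval 4.68 to 16.9%). The strongest were ND-ASHI at rank 560, COX7AL2 at 771, ND-39 at 1228 and ND-15 at 1244. At ND-ASHI, ND-39 and ND-15 the nearest TSS was that of Fum1, ZnT77C and CG13694. Of 15 mitochondrial aminoacyl-tRNA synthetase genes, LeuRS-m and PheRS-m (13.3%) carried an IDR summit, at ranks 420 and 1274. Dhc64C and CtsL1 were the genes of the nearest TSS. Summits also lay at 2 of the further genes named next. Of 21 further genes of mitochondrial genome expression, mtSSB at rank 1503 and mIF2 at rank 2841 carried an IDR summit (9.52%). Within 500 bp of a TSS the counts were 7 of 73 (9.59%) for the mitochondrial ribosomal protein genes and 3 of 88 (3.41%) for the respiratory chain. They were 0 of 15 for the synthetases, which allows a share of up to 20.0%, and 1 of 21 (4.76%) for the remaining genes. The background by this rule was 9.34% of all protein-coding genes and 5.32% of those of at most 2000 bp. In leading peaks the respiratory chain reached 9.47 ± 2.86% (SD, n = 3 replicates), against 12.8 ± 3.16% of the mitochondrial ribosomal protein genes. In replicates 1, 2 and 3 the shares were 9.09, 6.82 and 12.5%, against 16.4, 11.0 and 11.0%. The respiratory chain was thus lower in replicates 1 and 2 and higher in replicate 3.

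**Figure D3:**
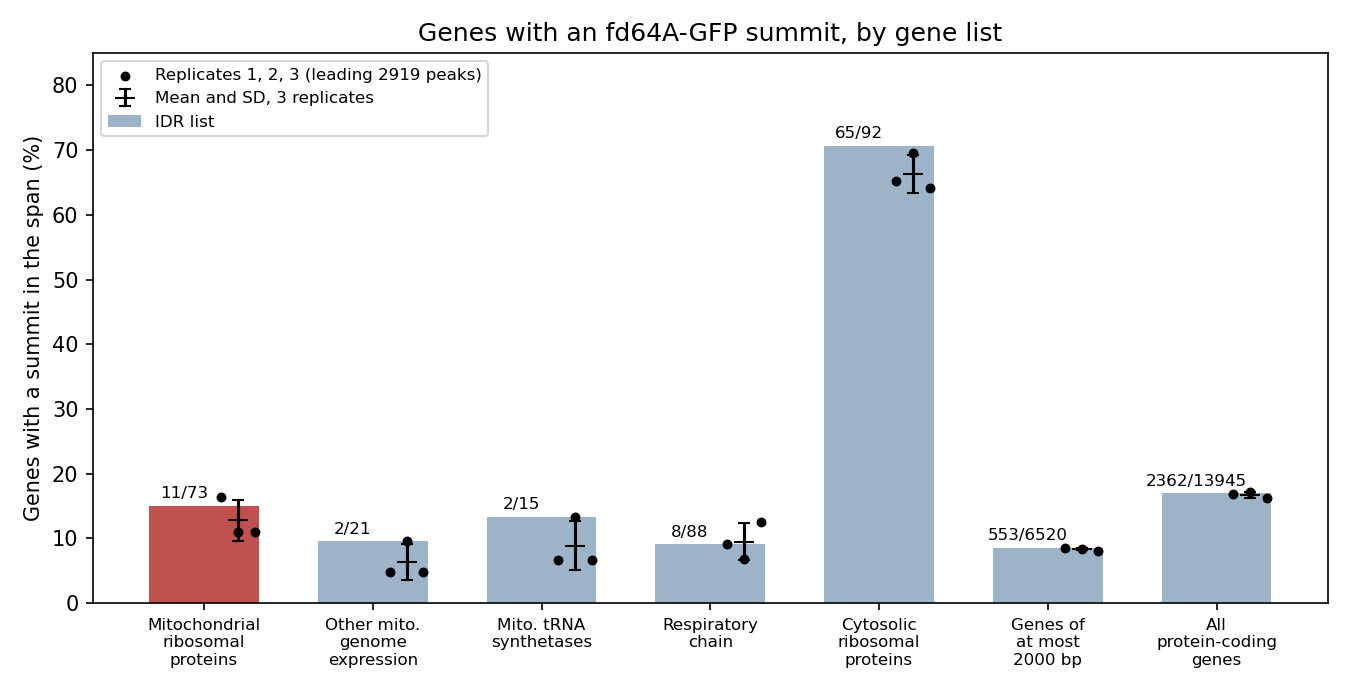
Share of genes in percent whose span holds a summit, for the mitochondrial ribosomal protein genes and 6 other lists; bars show the IDR list with its counts, points the leading peaks of replicates 1 to 3, and error bars the mean and SD over replicates. The cytosolic ribosomal protein genes stand at 70.7%, while the mitochondrial ribosomal protein genes, at 15.1%, lie beside the 16.9% of all protein-coding genes.

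Weaker peaks were counted over all 73 genes, the 62 without an IDR summit among them. In the relaxed list of the pooled replicates, which includes background by design, 57 of the 73 genes (78.1%) held a summit, against 68.5% of all protein-coding genes. Within 500 bp of a TSS this was 38 of 73 (52.1%), against 45.3% of all protein-coding genes and 89.1% of the cytosolic set. Of these 38 genes the strongest such summit ranked within 2919 at 7, between 2920 and 10000 at 10 and beyond 10000 at 21. As shares of the 73 genes these were 9.59, 13.7 and 28.8%. Over all protein-coding genes the shares were 9.34, 16.0 and 20.0%. The strongest class was near this background, but it repeats the IDR count, as the IDR peaks are the 2919 strongest pooled peaks. In the weakest class the share of the mitochondrial ribosomal protein genes was the higher one, a difference that was not tested. For the cytosolic set the counts were 64, 12 and 6 of 92. A pooled summit within 500 bp of a TSS was present at 30 of 47 large subunit (63.8%) and 8 of 26 small subunit genes (30.8%). The subunits thus differed here, unlike in the span of the IDR list, and this was not tested.

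**Figure D4:**
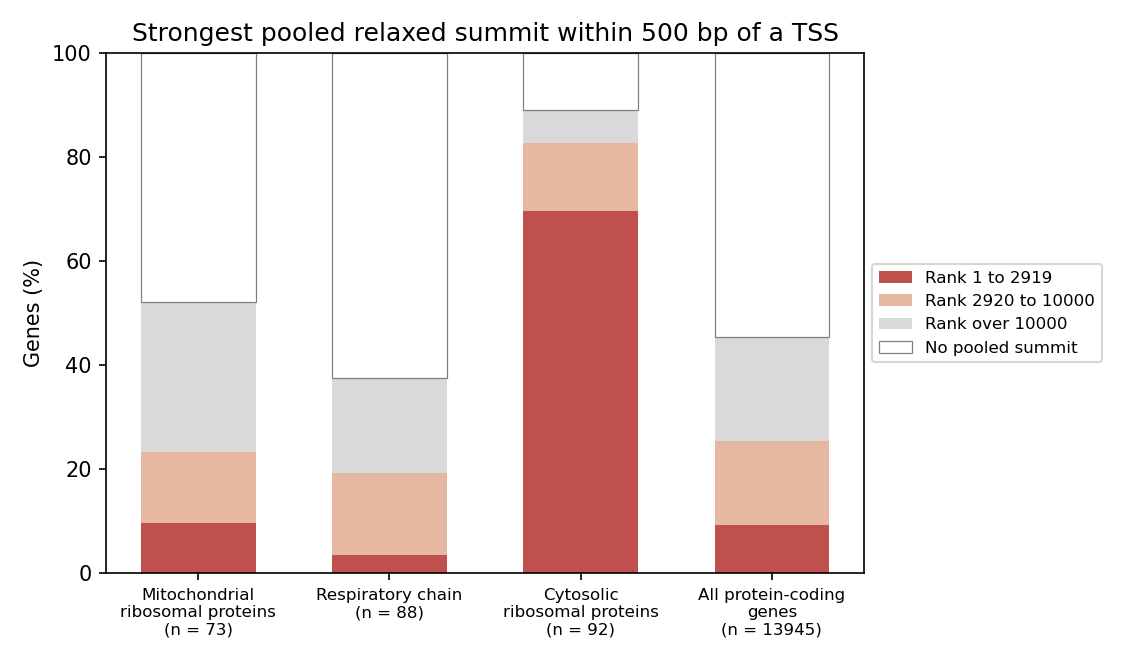
Share of genes in percent by the rank of their strongest pooled relaxed summit within 500 bp of a TSS, for the mitochondrial ribosomal protein, respiratory chain, cytosolic ribosomal protein and all protein-coding genes. Of 73 mitochondrial ribosomal protein genes, 7 fall in the strongest class, against 64 of 92 cytosolic ones.

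The genes just below the IDR list were mRpS9, mRpL22, mRpL51 and mRpL48, with pooled ranks of 3299, 4065, 4783 and 6200, while mRpL12, just inside, had rank 2875. mRpS9, at 13391 bp the longest of the 73 genes, had its summit 10235 bp downstream of its TSS in an intron it shares with wtrw, and ranks of 2863, 9963 and 3555 in replicates 1, 2 and 3. The summit of mRpL22 lay in an intron of if, which encodes an integrin subunit. Replicates 1 and 2 had their strongest summit of this span close by, 1676 and 1633 bp upstream of mRpL22 against 1673 bp in the pool, with ranks of 7901 and 3433. That of replicate 3, of rank 6547, was a different one, 679 bp upstream. Those of mRpL51 and mRpL48 lay 22 and 71 bp upstream of their TSS, and 9 and 30 bp from the TSS of Uba4 and CG17660. The strongest summits at mRpL51 ranked 6640, 11806 and 3580 in replicates 1, 2 and 3, and lay 36 bp upstream, 18 bp downstream and 6 bp upstream of its TSS. At mRpL48, that of replicate 2 had rank 2977 and lay 63 bp upstream, beside the pooled summit. Those of replicates 1 and 3 lay 202 and 1310 bp upstream, with ranks of 5855 and 21753, and the one of replicate 3 is a different summit. No gene outside the IDR list had a leading summit in more than 1 replicate. A leading summit in 1 replicate was found at mRpS9 in replicate 1 and at mRpS18B in replicate 2, with rank 2110. mRpS18B was named after its values were seen. No pooled summit lay in the span of 16 genes, which were mRpL4, mRpL10, mRpL30, mRpL35, mRpL39, mRpL44, mRpL50, mRpL52, mRpL54, mRpS5, mRpS7, mRpS14, mRpS18A, mRpS24, mRpS28 and mRpS35.

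Forkhead words were present under 5 of the 12 summits, within 50 bp to each side (41.7%, Wilson 95% interval 19.3 to 68.1%), and in 3 of the 24 windows 500 bp away (12.5%). Over all IDR summits the word was present in 29.9% and in the windows beside them in 16.5%. The interval of the 12 summits includes the share of all IDR summits. The summits with a forkhead word were those of mRpS10, mRpL41, mRpS16 and both of mRpL2. GTAAACA, which is one of the 4 forkhead words, lay under 3 of 12 summits (25.0%, Wilson 95% interval 8.89 to 53.2%), against 8.12% of all IDR summits. It lay in 0 of 24 flanking windows. The 3 summits were those of mRpS10 and mRpS16 and the second of mRpL2. For mRpS16 and the second of mRpL2, only replicate 1 had a leading summit within 100 bp. TATCGATA lay under 0 of 12 summits, which allows a share of up to 25.0%, against 0.891% of all IDR summits. CGATA, a word bound by BEAF-32 that also lies within TATCGATA, was present under 2 of 12, against 13.7%, at mRpL53 and mRpL12. A match of letters describes the sequence and is not a measured site.

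In the promoters, taken from 250 bases before to 50 after the start, the share with a forkhead word was near that of all promoters, and the shares with TATCGATA and GAGAG were further from it. A forkhead word was present in 37 of 73 promoters (50.7%), against 37.0% of the cytosolic set and 46.2% of all promoters. TATCGATA was present in 15 of 73 (20.5%, Wilson 95% interval 12.9 to 31.2%), against 30.4% of the cytosolic set and 9.36% of all promoters. Of the 16 copies in the mitochondrial ribosomal protein promoters, 14 lay within 50 bp of the start (87.5%), against 15 of 32 in the cytosolic set and 55.2% over all promoters. The 250 bases upstream of mRpS23 shown above hold both a near and a far copy. CGATA was present in 58.9%, against 47.4% of all promoters. GAGAG, the word of GAGA factor, was present in 16.4%, against 29.7% of all promoters, and in 16.3% of the cytosolic set. The median GC content was 34.7% in the mitochondrial ribosomal protein promoters, 36.3% in the cytosolic set and 38.0% over all promoters, and its part in these shares was not tested.

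**Figure D5:**
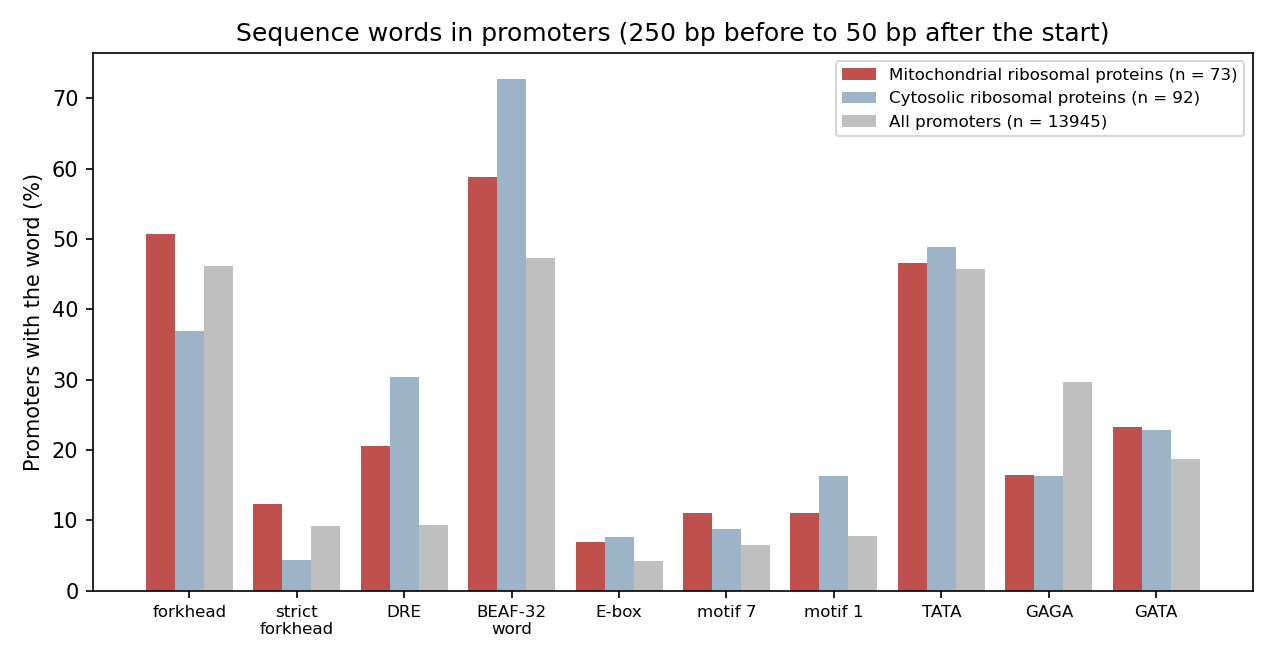
Share of promoters in percent that hold each sequence word, for the mitochondrial ribosomal protein genes (73), the cytosolic ribosomal protein genes (92) and all protein-coding genes (13945). The DRE word, TATCGATA, stands at 20.5, 30.4 and 9.36%, and the forkhead words at 50.7, 37.0 and 46.2%.

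The other words were compared in the same way. GTAAACA alone was present in 12.3% of the mitochondrial ribosomal protein promoters, against 9.19% of all promoters. CACGTG, an E-box, was present in 6.85% of the mitochondrial ribosomal protein promoters, against 4.20% of all promoters. The core promoter words CATCNCTA and GGTCACAC were both present in 11.0%, against 6.42% and 7.70% of all promoters. TATAAA, which can share bases with the forkhead words, was present in 46.6%, against 45.8%, and AGATAA in 23.3%, against 18.7%. CAGGTAG, CCGGAAGT and CGCATGCG were in 0 of 73, which allows up to 4.11%, against 1.64, 0.380 and 0.624% of all promoters. The genes were also split by an IDR summit in the span. A forkhead word was present in the promoters of 7 of 11 with a summit (63.6%) and 30 of 62 without one (48.4%). With a summit within 500 bp of a TSS it was 5 of 7. Over all protein-coding genes, 46.5% of promoters with such a summit held the word, against 46.2% of all promoters. The promoter word need not lie under the summit, and did not at mRpS23, mRpL24 and mRpS2. The difference was not tested. TATCGATA was present in 2 of 11, mRpS23 and mRpL12, and 13 of 62. These shares of TATCGATA were 18.2% with a summit and 21.0% without one.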

How the data were processed

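Peak lists in narrowPeak format on dm6 were used as deposited. Relaxed lists for the 3 replicates and their pool had been made as input to IDR, per the labels of the deposited files, and the IDR list was derived from them; all 2919 IDR peaks are the strongest pooled peaks. The aligner, the peak caller and the cut-off on IDR were not given in the sources used here. Peaks were ranked within a list by the deposited signal, the authors' own value for each peak, and the deposited −log10 q-value was used only for q under 0.05. Summits were placed on gene models of Ensembl release 115 and sequence was read from the NCBI genome of release 6, whose arm lengths contain all peaks. Overlaps needed 1 bp. Words were searched on both strands.

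Since there is 1 group, counts are given beside the share over all protein-coding genes, with no test. The samples are separate biological replicates of 1 strain per the labels. The genes and comparison lists were chosen with earlier results of these data known. Of 23 listed symbols of further mitochondrial genome expression genes, 21 matched. Genes named are all with an IDR summit, the 4 next in pooled rank, those outside the list with leading summits in 2 replicates, neighbours with a nearer TSS, and up to 4 of each comparison list. No gene met the condition on 2 replicates. mRpS18B, mRpL40 and the genes with no pooled summit fall outside this rule and were named after their values were seen. The counting was tested on simulated data. Python 3.11.15, NumPy 2.4.6, pandas 2.3.3 and matplotlib 3.10.9 were used. Alternatives covered the span, the peak threshold, the replicates, the windows and short genes.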

Additional observations from a re-analysis of the deposited data

How the results depend on the processing

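The number of mitochondrial ribosomal protein genes with an IDR summit depended on the rule. It was 11 as reported, and 7 with summits within 500 bp of a TSS. It was also 7 with spans from 500 bp upstream or with only the 1459 strongest IDR peaks. By the nearest TSS only it was 4, and with q under 0.05 it was 10. It was 5 to 8 when IDR peaks had to overlap leading peaks of 2 given replicates, which only filters the IDR list of all 3. As shares, these were 15.1% as reported against 16.9% of all protein-coding genes, 9.59% against 9.34% within 500 bp of a TSS, against 13.8% from 500 bp upstream and against 9.82% with the strongest peaks, 5.48% against 14.0% by the nearest TSS, and 13.7% against 16.3% with q under 0.05. With overlap required in both replicates other than 1, 2 or 3, they were 6.85, 11.0 and 9.59%, against 11.8, 12.4 and 12.0%. The gap to all protein-coding genes thus differed between rules and was widest by the nearest TSS. Genes of at most 2000 bp were an alternative background, chosen after seeing the data. Their share was 8.48% in the span, 5.32% within 500 bp of a TSS and 6.61% by the nearest TSS. Within 500 bp of a TSS, counts were 3 for the respiratory chain (8 as reported), 0 for the synthetases (2), 1 for the further genes (2) and 64 for the cytosolic set (65). Flanking windows 1000 bp away held a forkhead word in 1 of 24 (3 as reported). The mean leading share was 14.6% with q under 0.05 and 11.0 to 13.7% without 1 replicate. Windows of 100 bp to each side left 5 summits with a forkhead word and 0 with TATCGATA. Requiring overlap in 2 given replicates only removes summits, so it could not change the TATCGATA count of 0. Promoter summits numbered 9 with 250 bp in place of 500 bp, and peaks leading in all 3 replicates 5 with summits within 100 bp, against 6 by overlap. The causes were not tested. Without read numbers, depth limits cannot be given. No paired analysis was possible because there is only 1 group.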
